A study of Mus musculus with 5 samples.

Results

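Small nucleolar RNA host transcripts are spliced noncoding RNAs that carry small nucleolar RNAs in their introns. The 10 host genes described here, Snhg1, Snhg3, Snhg5, Snhg6, Snhg8, Snhg11, Snhg12, Gas5, Zfas1 and Epb41l4aos, were chosen by name, and their probe sets were found through the gene identifiers of the array annotation. Only 3 of the 10 had probe sets of their own: Gas5 had 4, Snhg11 had 2 and Snhg5 had 1. A further probe set was paired with Snhg8 and with Snora24, the small nucleolar RNA gene inside it, so its signal belongs to neither alone. The other 6 hosts were paired with no probe set in the annotation used and were not analysed here. The 3 measured hosts stood among 19937 genes with a probe set of their own. All 3 were among the 11502 genes kept for analysis, whose mean log2 signal over the arrays was at or above 5.76.

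In these genes the introns are the better conserved part. After splicing, box C/D RNAs (Snord genes), which guide methylation, and box H/ACA RNAs (Snora genes), which guide pseudouridylation, are trimmed from the introns and act in the nucleolus as stable particles. The spliced host leaves for the cytoplasm, and many hosts begin with a terminal oligopyrimidine tract (TOP), a pyrimidine run at the cap that also marks ribosomal protein mRNAs and places their translation under control of growth signals. Short open reading frames in several hosts are translated, and the transcripts are then removed by nonsense-mediated decay.

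RNA immunoprecipitation with microarray readout (RIP-chip) was run on R1 cells, a male mouse embryonic stem cell line from the inner cell mass of 129X1 x 129S1 blastocysts. The clones carried either pCAGGS::FLAG:MKRN1, a constitutively expressed FLAG fusion of the RING zinc finger protein MKRN1, or the FLAG vector pCAGGS::FLAG:Ctrl; both lines were G418-resistant and were grown in LIF and serum, first on embryonic fibroblast feeders and then on gelatin. There were 5 arrays, 1 per group. FLAG:Ctrl cells gave the vector input and the vector RIP (anti-FLAG), which the plots mark FLAG:Ctrl. FLAG:MKRN1 cells gave the MKRN1-line input, an anti-FLAG RIP and a RIP with control IgG. The comparisons ask which RNAs are recovered with FLAG:MKRN1 beyond the backgrounds given by the FLAG:Ctrl line and by IgG. No group was replicated, so the error of the values cannot be estimated, no test was run, and no difference below has a replicate check. The construct drives MKRN1 from a general promoter in selected clones, so it does not show recovery at the native level of the protein.

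Mkrn1 itself did not separate the lines, with log2 signals of 11.80 in the vector input and 11.71 in the MKRN1-line input; whether its probe set covers the construct is not known here. The anti-FLAG array of the FLAG:MKRN1 cells is therefore called the MKRN1-labelled RIP, and directions drawn from it rest on its label. Array medians lay between 5.68 and 5.88. All 10 stem cell markers examined were above the level filter, and their summed signal lay between 14.98 and 15.29 (log2) over the arrays. Single markers varied more. Klf4 read 8.82 in the vector input and 7.65 in the MKRN1-line input. In the MKRN1-labelled RIP 2 of the 10, Klf4 and Utf1, were 2-fold below the vector RIP, as were 818 of 11502 kept genes. Of the 10 feeder fibroblast markers, 9 had a probe set and 5 of these were above the filter. Their summed signal lay between 9.46 and 10.44, highest in the vector input. Thy1 led this sum, at 9.88 in the vector input and 8.25 to 8.93 on the other arrays. Col1a1 and Pdgfrb were also highest in the vector input, whereas Col1a2, Col3a1, Dcn, Lum and Twist2 were highest in the MKRN1-labelled RIP. The part of feeder RNA in the values below was not tested.

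The annotated 5′ starts of the measured hosts and of Snhg8 are shown because many hosts begin with a TOP. The genes themselves were chosen by name, not by their starts. Each line holds 30 bases before and 20 bases from the annotated start, from the RefSeq promoter table for GRCm38.p6, and the capitals mark the longest run of C and T that begins within 5 bases of the start.
Gas5, first annotated start (chr1:161034571-161034620, plus strand): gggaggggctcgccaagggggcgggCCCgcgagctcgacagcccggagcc
Gas5, second annotated start (chr1:161035136-161035185, plus strand): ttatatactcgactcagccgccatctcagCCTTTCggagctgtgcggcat
Snhg5 (chr9:88522878-88522927, minus strand): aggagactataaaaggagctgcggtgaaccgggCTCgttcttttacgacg
Snhg11 (chr2:158375683-158375732, plus strand): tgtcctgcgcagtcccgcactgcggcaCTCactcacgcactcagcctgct
Snhg8 (chr3:123508317-123508366, minus strand): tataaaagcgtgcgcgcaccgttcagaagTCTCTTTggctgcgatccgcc
The second Gas5 start and the Snhg8 start begin with C followed by at least 4 bases that are each C or T. Among 9 annotated starts of 8 hosts, these were the 2 that met this definition. It was met by 2.51% of all 32851 starts and by 19.7% of 66 starts of cytosolic ribosomal protein genes. With a run of at least 5 pyrimidines allowed to begin within 5 bases of the start, 5 of the 9 host starts qualified, against 26.4% of all starts and 43.9% of ribosomal protein starts. Snhg12 and Snhg1, paired with no probe set in the annotation used, held the longest such runs among the hosts, TCCTTTCTC and TTTTTCCTT. The sequence TATAAA lay 23 bases before the Snhg5 start and 30 bases before the Snhg8 start; 4 of the 9 windows of 300 bases held it on either strand, against 13.6% of all windows. CACGTG, searched on either strand in the same windows, was in 0 of the 9 and in 7.15% of all. An annotated start can lie some bases from the true cap, and these matches describe the letters of the windows only.

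Gas5, a growth arrest-specific transcript that hosts box C/D RNAs, was nearly level over the arrays in its main probe set, the first of the 4 and the only one paired with several transcript records. Its log2 signal was 12.84 in the vector input, 12.93 in the vector RIP, 12.89 in the MKRN1-line input, 12.90 in the IgG RIP and 13.11 in the MKRN1-labelled RIP. The MKRN1-labelled RIP was the highest array, but the whole range was 1.20-fold. Gas5 was 1.13-fold above the vector RIP, 1.15-fold above the IgG RIP and 1.16-fold above its own input, and 26.3%, 24.4% and 30.3% of kept genes lay at least as far above in those comparisons. The first difference, 0.17 on the log2 scale, was -0.03 with each array centred on the median of all its probe sets.

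Snhg5, the host of box C/D RNAs of the U50 type, lay slightly the other way. Its log2 signal was 11.67 and 11.68 in the vector and MKRN1-line inputs, 11.71 in the vector RIP, 11.73 in the IgG RIP and 11.40 in the MKRN1-labelled RIP. The MKRN1-labelled RIP was the lowest array, and the other 4 lay between 11.67 and 11.73. It was 1.24-fold below the vector RIP, 1.25-fold below the IgG RIP and 1.21-fold below its own input. As many as 31.3% of kept genes lay at least as far below the vector RIP and 29.0% below the IgG RIP, so this position was a common one. Over the alternatives the difference from the vector RIP ran from -0.51 to -0.13 and kept its sign.

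Snhg11, a host transcript best known from neurons, was measured close to the level filter. In its brighter probe set the log2 signal was 6.46 in both inputs, equal within 1e-06, 5.98 in the vector RIP, 6.39 in the IgG RIP and 6.46 in the MKRN1-labelled RIP. The vector RIP was the array that stood apart, with a log2 difference of -0.47 from its own input, where 3.15% of kept genes lay at least as far below. The MKRN1-labelled RIP was accordingly 1.39-fold above the vector RIP but only 1.05-fold above the IgG RIP, and its difference from its own input was 0.00 on the log2 scale. The difference of 0.07 from the IgG RIP turned to -0.11 with arrays centred and to -0.04 after quantile normalization. The other probe set was below the level filter, with the same value of 5.55 in both inputs and the vector RIP, 5.48 in the IgG RIP and 5.66 in the MKRN1-labelled RIP. Equal values are common in this table, and 14.1% of kept genes had equal values in the 2 inputs.

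The probe set shared by Snora24 and Snhg8 had log2 signals of 7.40 and 7.34 in the vector and MKRN1-line inputs, 7.55 in the vector RIP, 6.81 in the IgG RIP and 7.27 in the MKRN1-labelled RIP. Here the IgG RIP was the low array, 1.44-fold below its input. The 2 control RIPs were 1.67-fold apart, and 0.643% of kept genes differed at least as far in that direction. The MKRN1-labelled RIP lay between them, 1.22-fold below the vector RIP and 1.38-fold above the IgG RIP.

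**Figure D1:**
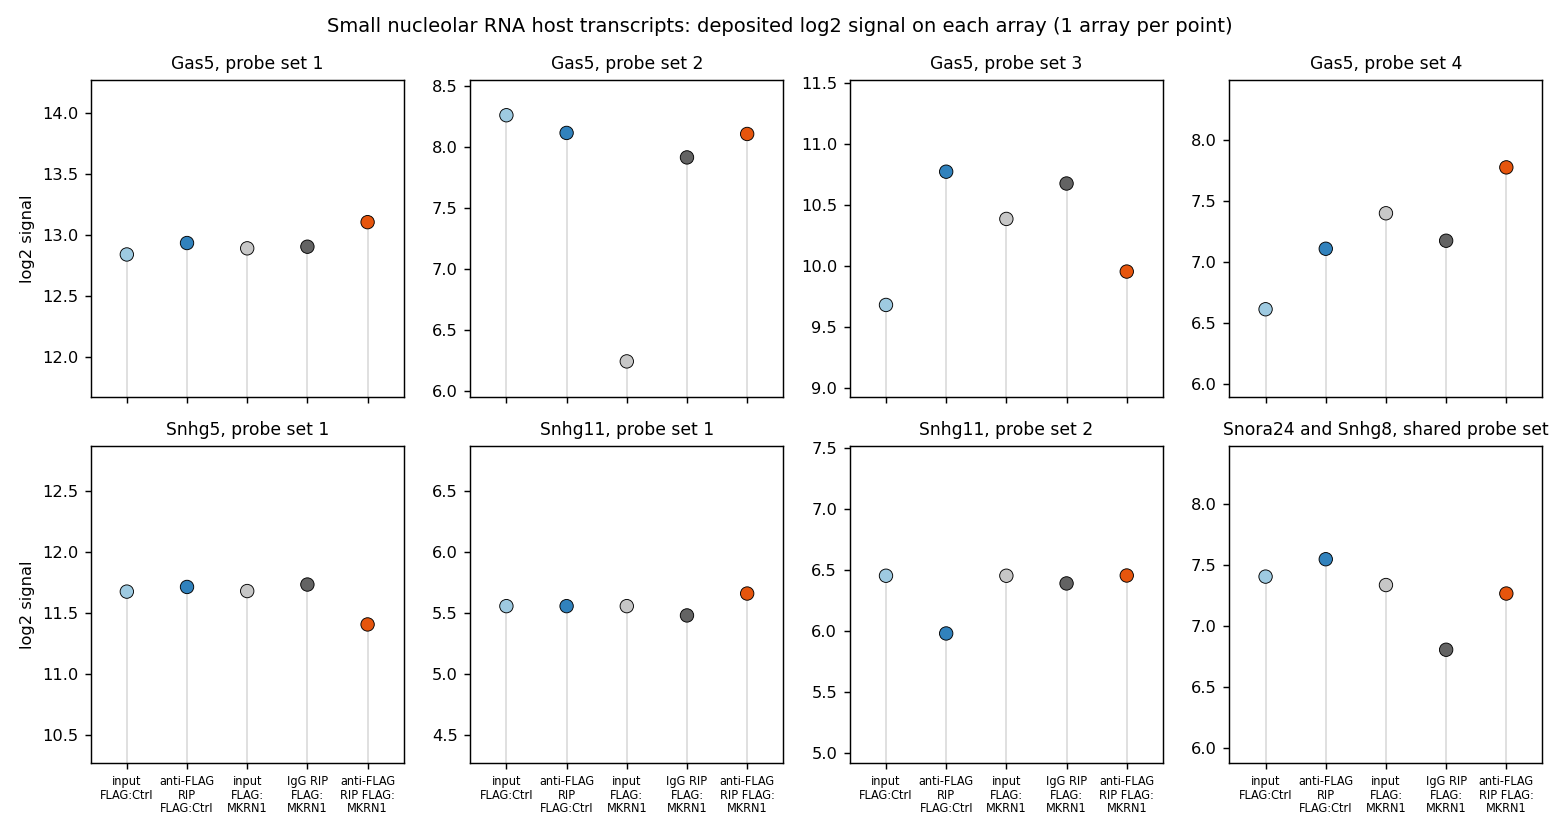
Deposited log2 signal (y axis) of each probe set paired with a listed host on the 5 arrays (x axis), 1 point per array, with every panel spanning the same 2.6 log2 units. The first Gas5 probe set and Snhg5 are nearly level, and the second Gas5 probe set is low in the MKRN1-line input alone, at 6.24.

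The other Gas5 probe sets, each paired with a single transcript record, did not follow the first. The stretch of the gene that each covers is not known here. It is also not known whether these probe sets read the spliced host or small nucleolar RNAs of its introns. The second read 8.26 in the vector input and 6.24 in the MKRN1-line input, a 4.05-fold difference, with 8.11 in each anti-FLAG RIP and 7.91 in the IgG RIP. Only 0.0435% of kept genes lay at least as far below between the inputs, while the first Gas5 probe set differed there by 0.05. The MKRN1-line input was the array that stood apart: in this probe set both RIPs from that lysate lay above it, by 1.86 (MKRN1-labelled) and 1.67 (IgG), although the MKRN1-labelled RIP differed from the vector RIP by only -0.01.

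The third Gas5 probe set had its lowest value in the vector input, 9.68, and 10.38 in the MKRN1-line input. The vector RIP and IgG RIP were close, at 10.77 and 10.67, and the MKRN1-labelled RIP was lower, at 9.95. It was thus 1.76-fold and 1.65-fold below the 2 control RIPs, short of 2-fold, although the first difference was -1.02 with arrays centred and -0.56 after quantile normalization. The fourth went the opposite way, from 6.61 in the vector input through 7.11, 7.17 and 7.40 in the vector RIP, IgG RIP and MKRN1-line input to 7.78 in the MKRN1-labelled RIP, which was 1.59-fold and 1.52-fold above the control RIPs.

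Across its 4 probe sets the Gas5 difference between the inputs therefore spanned 2.80 on the log2 scale. Of the 136 genes with at least 3 probe sets above the level filter, the median span was 0.45 and 5, Gas5 included, spanned as much. For the differences from the vector RIP and the IgG RIP the Gas5 spans of 1.49 and 1.32 were common ones, since 32.4% and 41.9% of those genes spanned as much. A single Gas5 value therefore depends on how the probe sets are joined. Taking the median signal of the 4 on each array and then the differences gave -0.41 and -0.26 from the control RIPs, while the median of the 4 probe sets' own differences was 0.08 and 0.20.

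In total 0 of the 3 measured hosts were at least 2-fold higher, and 0 at least 2-fold lower, than both control RIPs with the input on the same side. Among all kept genes 1.09% were called higher and 5.36% lower by this rule, so 0 of 3 lies near the background share. None of the 3 was 2-fold apart, in either direction, in any single comparison. In the MKRN1-labelled RIP 8.73% of kept genes were 2-fold from the vector RIP, 8.47% from the IgG RIP and 7.98% from own input. The vector RIP differed 2-fold from its input at 1.32% of kept genes, the IgG RIP at 1.78%, and the inputs from each other at 1.67%. With own inputs subtracted from both anti-FLAG RIPs the share was 10.6%. The medians of the 3 hosts were 0.17 against the vector RIP and 0.07 against the IgG RIP, beside -0.03 and 0.00 over all kept genes. Centring turned the host medians to -0.03 and -0.11. Bright genes lay lower as a whole: with the level filter at the 75th percentile, the medians over 5733 genes were -0.26 and -0.24. Gas5 and Snhg5 are bright, and their positions among all kept genes were not matched for signal level. The 3 hosts gave 0 calls at 1.5-fold under the rule against both control RIPs as well. Of the 7 probe sets of these hosts, the second Gas5 set was 2-fold lower in the MKRN1-line input, where 0.954% of probe sets above the filter were. Above that input it was 2-fold higher in both RIPs of the line: 2.72% of probe sets were so in the MKRN1-labelled RIP and 1.48% with IgG. The third Gas5 set was 2-fold above input in the vector RIP, where 1.10% were. These calls share the inputs, and the last 2 of the second set use 1 input array.

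**Figure D2:**
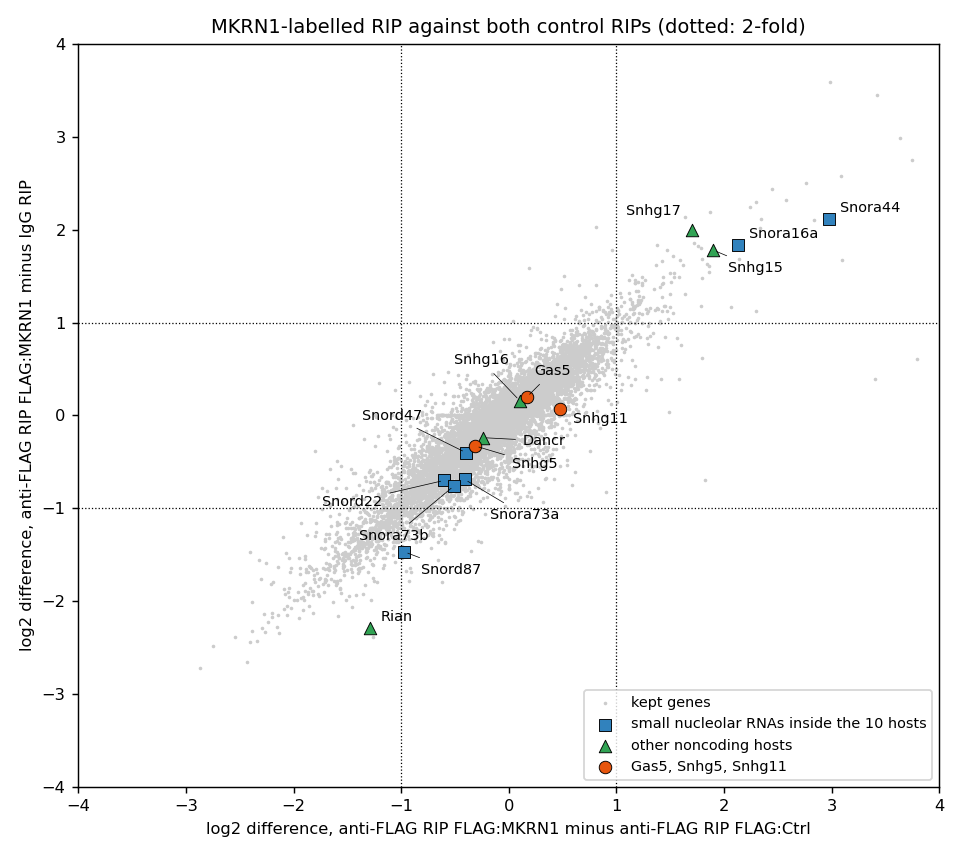
Log2 difference of the MKRN1-labelled RIP from the vector RIP (x axis) and from the IgG RIP (y axis), 1 point per gene, grey for all kept genes (6 lie outside the limits); dotted lines mark 2-fold. Gas5, Snhg5 and Snhg11 (circles) lie in the centre, while Snora16a, Snora44 (squares), Snhg15 and Snhg17 (triangles) lie beyond 2-fold on both axes, which share 1 array.

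Several small nucleolar RNAs inside the 10 hosts lay farther from the control RIPs than any of the 3 measured hosts did, with each host taken at its brightest probe set. The third Gas5 probe set lay at -0.82 and -0.72. The RefSeq gene table places 32 small nucleolar RNA genes within the 10 host genes, and 7 of them had a probe set of their own: Snord22 of Snhg1, Snora73a and Snora73b of Snhg3, Snord87 of Snhg6, Snora16a and Snora44 of Snhg12, and Snord47 of Gas5. Of these hosts only Gas5 was measured, so only Snord47 can be set beside its own host. A probe set for an intronic RNA cannot separate the mature RNA from the unspliced host. All 7 were above the level filter. By the rule against both control RIPs, 2 of the 7 were called higher and 0 lower, beside 1.09% and 5.36% of all kept genes. Calls were no rarer among small nucleolar RNA genes outside the hosts. Of these, 16 Snora and 28 Snord genes had a probe set of their own, and 14 and 16 were above the level filter. Among those kept, 8 of 14 Snora and 6 of 16 Snord genes were called higher, and 0 and 3 lower.

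Both called RNAs come from Snhg12. Snora44 read 8.65 and 9.21 in the vector and MKRN1-line inputs, 6.36 in the vector RIP, 7.22 in the IgG RIP and 9.34 in the MKRN1-labelled RIP. The control RIPs were the low arrays, with log2 differences of -2.29 (vector) and -1.99 (IgG) from their inputs, and the MKRN1-labelled RIP stood at input level, with a log2 difference of 0.12. Its distance of 7.87-fold from the vector RIP and 4.33-fold from the IgG RIP thus went with low values of the controls. Snora16a read 6.04 and 6.45 in the inputs, 5.70 in the vector RIP, 6.01 in the IgG RIP and 7.83 in the MKRN1-labelled RIP. Here the MKRN1-labelled RIP was the array that stood apart, 4.38-fold above the vector RIP, 3.55-fold above the IgG RIP and 2.61-fold above its own input. Both stayed beyond 2-fold of both control RIPs under each scaling, with the lowest difference 1.65.

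The 3 box C/D RNAs lay on the other side. Snord87 read 6.83 in the vector input and 8.60 in the MKRN1-line input, 7.61 in the vector RIP, 8.11 in the IgG RIP and 6.64 in the MKRN1-labelled RIP. The MKRN1-labelled RIP was 3.90-fold below its input, 1.95-fold below the vector RIP and 2.77-fold below the IgG RIP. Snord22 likewise had its lowest value there, 6.65, against 8.31 in the MKRN1-line input and 6.99 to 7.35 on the other arrays. Snord47, from a Gas5 intron, read 6.63 there, 7.56 in the MKRN1-line input and 6.83 to 7.03 on the other arrays, so that it differed from its input by -0.93 where the first Gas5 probe set differed by 0.21. Snord47 and that probe set share the host gene, and no error is attached to either.

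Snora73a and Snora73b, the U17 RNAs that act in ribosomal RNA cleavage rather than modification, were bright on every array and lowest in the MKRN1-labelled RIP. Snora73a read 12.61 in the MKRN1-line input and 11.54 in the MKRN1-labelled RIP, and Snora73b read 12.81 and 11.80. These genes are near-identical, and their values are not independent. Between the inputs, 7 of 7 hosted RNAs were higher in FLAG:MKRN1 lysate, from 0.41 for Snora16a to 1.77 for Snord87, whereas 4444 of 11502 kept genes were above 0. In the IgG RIP 0 of 7 were above the same input, beside 5833 of 11502 kept genes. These 2 counts share the MKRN1-line input array. Other small nucleolar RNA genes lay the same way: 11 of 14 Snora and 12 of 16 Snord genes were higher between the inputs, and 1 of 14 and 3 of 16 were above input in the IgG RIP.

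These other genes were grouped by symbol after values had been seen. Between the inputs their medians were 0.48 (Snora) and 0.43 (Snord), beside 0.56 for the hosted RNAs, and in the IgG RIP minus input -0.60 and -0.60, beside -0.49. The medians in the MKRN1-labelled RIP were farther apart. The 14 other Snora genes kept had a median of 1.56 against the vector RIP and the 16 other Snord genes kept had 0.71. The hosted Snora genes had 0.86 over 4 genes and the hosted Snord genes -0.60 over 3. Against own input in the MKRN1-labelled RIP the medians were 0.78 and -0.01 for the other Snora and Snord genes, and -0.45 and -1.66 for the hosted ones. The groups are small, and no difference between them was tested.

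**Figure D3:**
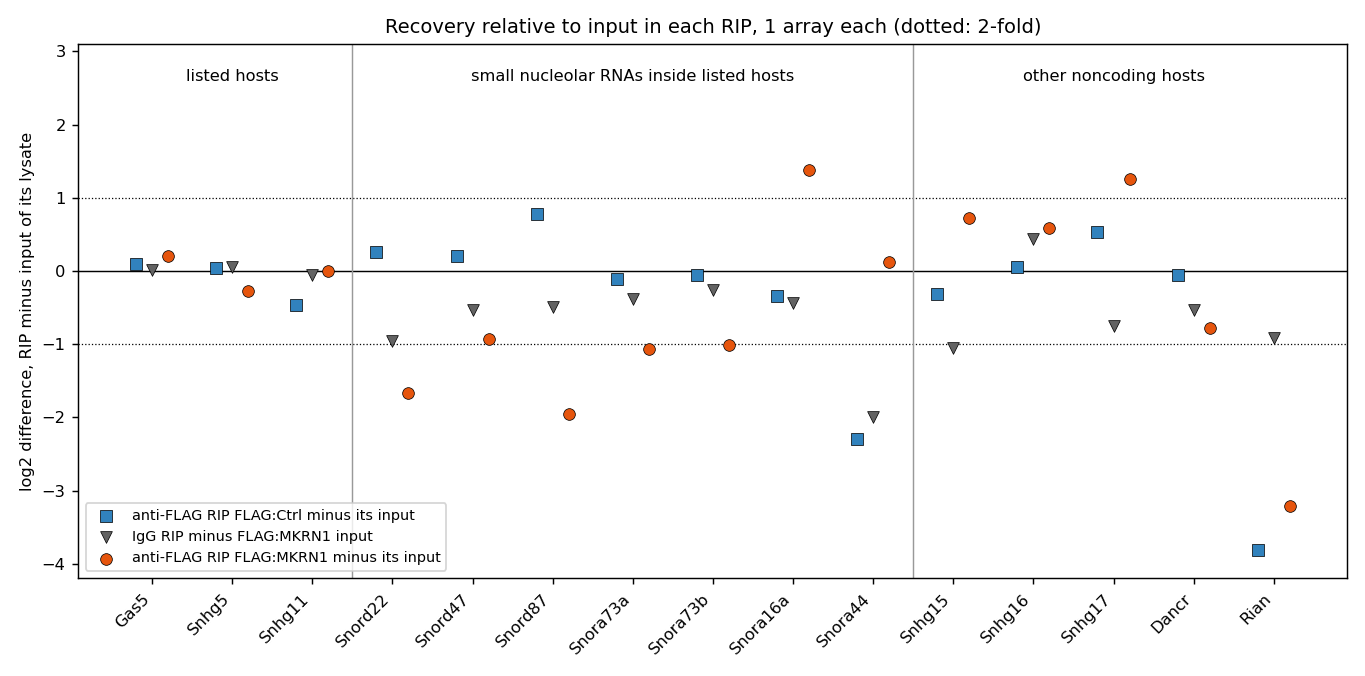
Log2 difference of each RIP from the input of its own lysate (y axis) for the listed hosts, the small nucleolar RNAs inside them and other noncoding hosts (x axis), with squares for the vector RIP, grey triangles for the IgG RIP and circles for the MKRN1-labelled RIP; the last 2 share 1 input. The 3 hosts, each at its brightest probe set, lie within 0.47 of their inputs, while Snora16a lies at 1.38 and Snord87 at -1.96 in the MKRN1-labelled RIP.

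Of 12 noncoding hosts outside the list 5 had a probe set of their own. By the rule against both control RIPs, 2 of these were called higher and 1 lower, beside 1.09% and 5.36% of all kept genes. Snhg15 read 7.57 and 8.42 in the vector and MKRN1-line inputs, 7.25 in the vector RIP, 7.37 in the IgG RIP and 9.15 in the MKRN1-labelled RIP, which was 3.73-fold and 3.44-fold above the control RIPs. Snhg17 read 7.12, 8.10, 7.65, 7.35 and 9.34 on the same arrays and was 3.24-fold and 3.99-fold above them. A second Snhg17 probe set was 1.65 above both control RIPs, but the other differed from them by -0.50 and -0.46. Snhg15 was already 0.85 higher in the MKRN1-line input and 0.73 above that input in the MKRN1-labelled RIP. The Snhg17 probe sets differed between the inputs by 0.98, 0.27 and -0.35, and in the MKRN1-labelled RIP from own input by 1.25, 1.62 and -0.26, in the order described.

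Snhg16 differed by 0.10 and 0.16 from the control RIPs, which turned to -0.11 and -0.02 with arrays centred, and Dancr by -0.24 from each. Rian, an imprinted transcript that hosts a tandem cluster of box C/D RNAs, was the 1 called lower. It read 9.24 in the vector input and 7.35 in the MKRN1-line input, 5.43 in the vector RIP, 6.43 in the IgG RIP and 4.14 in the MKRN1-labelled RIP. In this probe set all RIPs were below their inputs, and once low values were lifted to the filter level its difference from the vector RIP was 0.00. A probe set shared by AF357355 and Rian was not called, at -2.44 from the vector RIP and -0.81 from the IgG RIP. It read 8.89 in the vector input and 10.3 in the MKRN1-line input, so the inputs differed the other way. Its vector RIP was 0.24 above input. A probe set shared by Snora43 and Snhg7 was 1.66 above the vector RIP and 1.06 above the IgG RIP.

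Further lists held genes known for a TOP or as targets of nonsense-mediated decay, and genes whose products regulate TOP mRNAs or carry out the decay. For each, the calls are read beside the 1.09% higher and 5.36% lower among all kept genes, of which 4586 of 11502 lay above 0 against the vector RIP. The medians of all kept genes were -0.03 against the vector RIP and 0.00 against the IgG RIP. With the level filter at the 75th percentile they were -0.26 and -0.24, and the lists were not matched for signal level. The extremes of each list are named by whichever of the differences from the control RIPs was the smaller in size, so a named gene need not be the extreme against one control alone. Of 53 cytosolic ribosomal protein genes, which carry TOPs, 0 were called, their median was -0.02 against each control RIP, and 23 lay above 0 against the vector RIP. Lowest by this measure was Rpl10, at -0.78 and -0.84, and highest was Rpl21, at 0.74 against each. Of 16 other translation genes with TOPs 0 were called, with medians of -0.20 and -0.23 and 3 above 0 against the vector RIP. Eif3h, an initiation factor subunit, was lowest at -0.76 and -0.83, and Naca, which shields nascent chains, was highest at 0.08 and 0.06. Of 12 regulators of TOP mRNAs 0 were called, with medians of -0.26 and -0.28 and 2 above 0. The growth kinase gene Mtor was lowest of these at -0.97 and -0.89, and Eif4ebp2, which encodes a repressor of cap-dependent initiation, was highest at 0.60 and 0.03.

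Of 15 factors of nonsense-mediated decay 3 were called lower and 0 higher, beside 5.36% and 1.09% of all kept genes, with medians of -0.08 and -0.18 and 4 above 0 against the vector RIP. Xrn1, the cytoplasmic 5′ to 3′ exonuclease, read 8.43 to 8.46 on the other 4 arrays and 6.85 in the MKRN1-labelled RIP, 3.00-fold below each control RIP. The other 2 called lower, named after their values were seen, were Dcp1a, a decapping cofactor gene, at -1.52 and -1.47, and Smg1, the gene of the UPF1 kinase, at -1.23 and -1.18. Smg9, a regulator of the decay kinase SMG1, was the highest, at 0.23 against each. Of 15 known decay targets 2 were called lower and 0 higher, beside the same shares of all kept genes, with medians of -0.22 and -0.22 and 2 above 0. Upp1, which encodes uridine phosphorylase, was lowest at -1.60 and -1.15, and Atf3, a stress transcription factor gene, highest at 0.11 and 0.56. The other target called lower, named after its values were seen, was the stress gene Gadd45b, at -1.45 and -1.15.

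**Figure D4:**
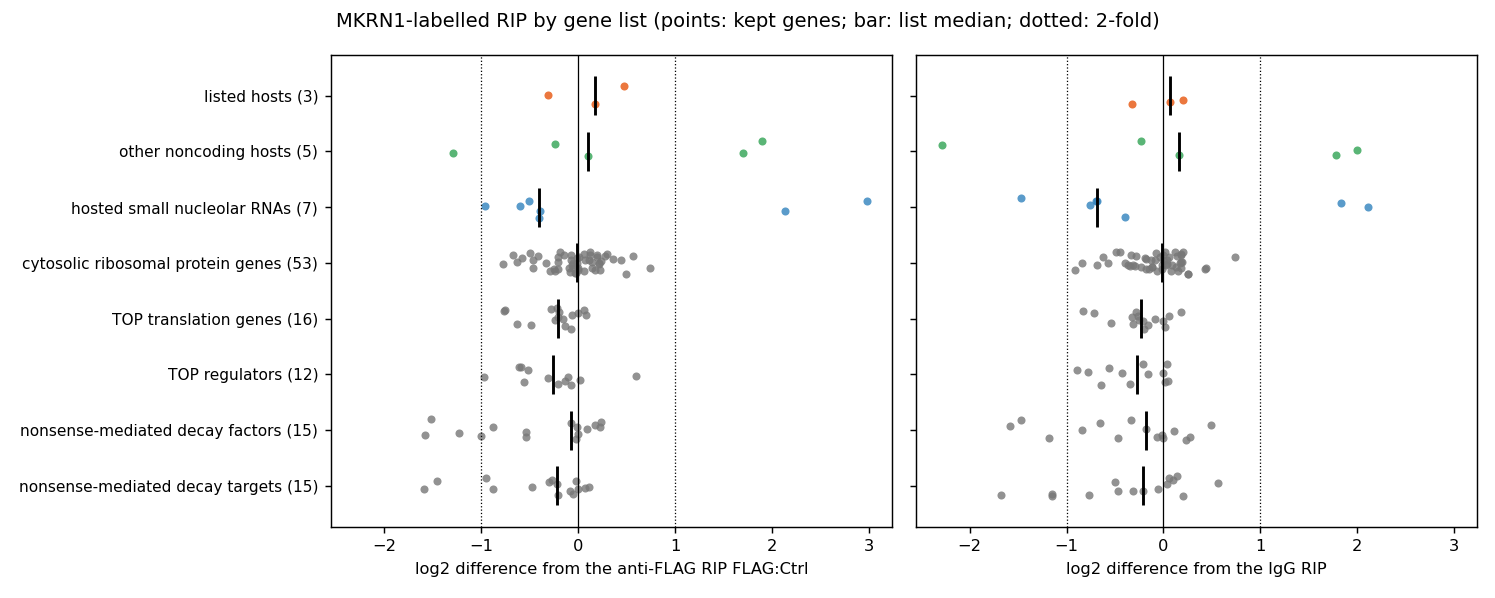
Log2 difference of the MKRN1-labelled RIP from the vector RIP (left) and from the IgG RIP (right) for kept genes of each list (number in brackets), with the list median as a bar and 2-fold as dotted lines; vertical scatter within a row has no meaning. Medians lie between -0.41 and 0.17 on the left, and the widest rows are the hosted small nucleolar RNAs and the other noncoding hosts.

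The scale of the MKRN1-labelled RIP sets how these counts split. As deposited, 186 kept genes were at least 2-fold above the vector RIP and 818 below, so that 18.5% of these were higher. The share was 7.49% with arrays centred on all probe sets, where the median of all kept genes moved to -0.23, and 30.2% with arrays centred on probe sets above the filter, where it moved to 0.09. The 3 hosts were not called under any of these scalings.

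The kept genes most like the hosts in profile were Msgn1, Espn, Mtap, Sec11a and Emilin1. Likeness was the Euclidean distance, over 5 arrays, between each gene's values minus their own mean and the median of the 3 host profiles. The distance was 0.101 for each of the 5, and the median over kept genes was 0.448. Gas5 itself lay at 0.180, Snhg5 at 0.355 and Snhg11 at 0.379, farther from their own median than these 5 genes. The median profile was nearly flat, 0.11 in the MKRN1-labelled RIP and between 0.00 and 0.04 elsewhere.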

How the data were processed

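The authors' deposited table holds log2 signal per probe set, 1 column per array. Per the labels' protocols, biotin-labelled RNA was hybridised by standard Affymetrix procedures; no source used here gives the array software, background correction, normalization or genome build, and the log2 scale was inferred from the range of 2.56 to 14.4. Columns were matched to samples by accession and grouped by title. Of 34760 probe sets, 21640 named 1 gene, 1321 several and 11799 none; 21553 were matched by gene identifier to the RefSeq gene table (GRCm38.p6) for current symbols. The brightest probe set stood for a gene, and genes with a mean below 5.76, the median over probe sets, were left out.

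Differences of log2 values were counted at 2-fold (Python 3.11.15, pandas 2.3.3, statsmodels 0.14.6). The rule against both control RIPs required 2-fold from each and the same direction from own input. Named genes were the hosts, hosted small nucleolar RNAs, other hosts, both extremes of each further list (by the smaller of both control differences, 0 where signs differ), the 5 most similar profiles and Mkrn1. The hosts and lists were chosen with earlier results of these data known. The precision cannot be estimated with 1 array per group.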

Additional observations from a re-analysis of the deposited data

Results flagged for a closer look

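Several results moved in opposite directions from input in the anti-FLAG RIPs of the 2 lines, with at least 2-fold between them. With 1 array per group, these differences were not tested. The share of all kept genes that meet this rule was not counted. A 2-fold difference alone, whatever the directions, was met by 10.6% of kept genes. Among other small nucleolar RNA genes it was met upward by 8 of 14 Snora and 5 of 16 Snord genes, and downward by 1 and 5. Given as the log2 difference from input in FLAG:MKRN1 lysate minus that in FLAG:Ctrl lysate, the second Gas5 probe set had 2.01 and the third -1.52. Among small nucleolar RNAs inside the hosts, Snord87 had -2.74, Snord22 -1.92 and Snord47 -1.13, while Snora44 had 2.42 and Snora16a had 1.72. The inputs enter each value: the second Gas5 probe set differed by -2.02 and Snord87 by 1.77 between them.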

How the results depend on the processing

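Alternatives were 2 ways of centring arrays, quantile normalization, removal of the trend with signal level, values raised to the level filter, the median signal over probe sets, the median of the probe sets' own differences, other filters, thresholds of 1.5-fold and 4-fold, and other uses of the input. Centring on probe sets above the filter and the median of differences were chosen after seeing the data. Of 184 values for the counts and medians of the 3 hosts, 181 stayed within 1.5 times (counts) or within 0.243 (medians), the SD of the difference between the control RIPs over kept genes. The other 3 came from the median signal over probe sets, where the host medians were -0.31 against the vector RIP, -0.26 against the IgG RIP and -0.31 with own inputs subtracted; this setting replaces the first Gas5 probe set with the median of 4. With the median of differences they were 0.08, 0.12 and 0.00. The limit of 0.243 was larger than every host median as deposited, the largest of which was 0.17. A median could therefore change sign and still count as staying. With arrays centred on the median, the host medians of 0.17 (vector RIP) and 0.07 (IgG RIP) turned to -0.03 and -0.11. Some of the 184 values could not move. Counts of 0 at 2-fold must stay 0 at 4-fold, and without the level filter the same 3 hosts keep the same values. Of 1240 values for single genes and probe sets, 25 moved by more, and none past 2-fold changed sign. No paired analysis was possible because each group has 1 array. The 6 hosts paired with no probe set in the annotation used were not measured here.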
